A study of Drosophila melanogaster with 2 samples.

Results

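The genes described here act in the response to the 2 lipid hormones of insects, the steroid ecdysone and juvenile hormone. They are the ecdysone receptor gene EcR, its partner usp, the coactivator gene tai, the ecdysone-induced transcription factor genes Eip75B, Eip74EF, br and ftz-f1, the juvenile hormone receptor genes Met and gce, and the juvenile hormone-induced factor gene Kr-h1. The list of 10 was given by name, and a row of the expression table was found for 9 of them among its 9607 genes; usp was not analysed here. The cells came from the midgut epithelium of adult Drosophila melanogaster females of the wild-type strain Canton S. Flies were 3 or 1 days old, with 1 library at each age and no other treatment named. The 10 cell classes are the authors' annotation: 2 of intestinal stem cells (ISC1, ISC2), 3 of enteroblasts (EB1, EB2, EB3), which are the stem cells' daughters on the way to enterocytes, the EC-like cells, 2 of hormone-secreting enteroendocrine cells (AstC+EE and Tk+EE, named for the peptide genes AstC and Tk), and 2 of absorptive enterocytes (apEC, mEC).

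Ecdysone, once inside the cell, binds EcR, which works as a dimer with the Usp protein and recruits coactivators such as Taiman, the product of tai. The receptor switches on a first tier of transcription factors, among them the Eip75B and Eip74EF products and the zinc finger proteins of br, and these set the timing of later genes such as ftz-f1. Juvenile hormone binds Met or its paralogue Gce, which likewise partner with Taiman, and the best known target is Kr-h1. In adult female flies both hormones are known to act on the midgut, where they promote the division of stem cells and the growth of the organ after mating.

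The day 3 library held 1473 cells with a median of 32121 UMIs, and the day 1 library 2711 cells with a median of 25935 UMIs (unique molecular identifiers, 1 per captured transcript). The libraries shared 1 cell barcode. Levels below are mean UMIs of the gene per 10000 UMIs of the cell. UMI counts were rebuilt from the deposited depth-corrected counts, exactly for the shallower cells, those with no more than the overall median of 28085.5 UMIs, and as a range from the lowest to the highest possible count for deeper cells, whose midpoint is given. Summed corrected levels of the enteroendocrine and enterocyte marker genes went with the class names. The 7 enteroendocrine markers summed to 276 and 1490 per 10000 in AstC+EE and Tk+EE cells at day 3, and to 180 and 1562 at day 1, and to at most 1.94 in every other class. The 8 enterocyte markers summed to 1228 in apEC and 90.9 in mEC cells at day 3, and to 1053 and 56.0 at day 1. EC-like cells held 4.58 of them at day 3 and 7.90 at day 1, beside 33.3 and 34.7 of the 6 progenitor markers, so the EC-like cells carried progenitor rather than enterocyte markers. Of the day 1 EC-like cells 81 fell in a deposited cluster that held 0 of the day 3 cells. With 1 library per age there was no replicate check. Age and library cannot be told apart, no test between ages was possible, and the intervals given cover counting error only.

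EcR lies on arm 2R (6087873 to 6169087, minus strand, in the BDGP6 annotation). Scaled to all UMIs of a cell, EcR was highest in both enteroendocrine classes and lowest in enterocytes at both ages. Its level was 0.756 in Tk+EE and 0.751 in AstC+EE cells at day 3, and 0.416 and 0.433 at day 1. ISC2 followed with 0.476 at day 3 and 0.292 at day 1, and ISC1 had 0.398 and 0.277. In the enteroblasts EB1, EB2 and EB3 it was 0.358, 0.410 and 0.327 at day 3, and 0.293, 0.195 and 0.201 at day 1. The EC-like cells had 0.283 at day 3 and 0.317 at day 1 and were the only class outside the enterocytes in which the day 3 library was lower. Enterocytes had 0.119 (apEC) and 0.0517 (mEC) at day 3, and 0.0886 and 0.0611 at day 1. The receptor gene was thus detected throughout the progenitor and enteroendocrine classes, with neighbouring progenitor classes close to one another. In the shallower enteroendocrine cells the level rested on 41 UMIs at day 3 (exact Poisson 95% interval 29.4 to 55.6) and on 23 at day 1 (14.6 to 34.5).

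The coactivator gene tai (2L, 9166778 to 9250211, plus strand) ranked the classes differently, with EB1 first at both ages. EB1 had 0.870 UMIs per 10000 at day 3 and 0.613 at day 1. EB3 had 0.714 at day 3 but 0.375 at day 1, while ISC2 had 0.657 and 0.503, and EC-like cells 0.631 and 0.464. ISC1 stood at 0.507 and 0.378, and EB2 at 0.386 and 0.262. AstC+EE cells had 0.364 at day 3 and 0.289 at day 1, and Tk+EE cells 0.293 and 0.312. The place of the enteroendocrine cells depended on the measure: by depth-corrected counts Tk+EE cells had 0.473 at day 3 and 0.565 at day 1, which at day 1 was second to the 0.603 of EB1, and AstC+EE cells 0.481 and 0.419. The enterocyte classes lay between 0.131 and 0.149 at day 3 and between 0.127 and 0.152 at day 1. EcR and tai encode proteins that act together. Per 10000 of all UMIs they had their highest levels in different classes, EcR in enteroendocrine cells and tai in EB1.

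**Figure D1:**
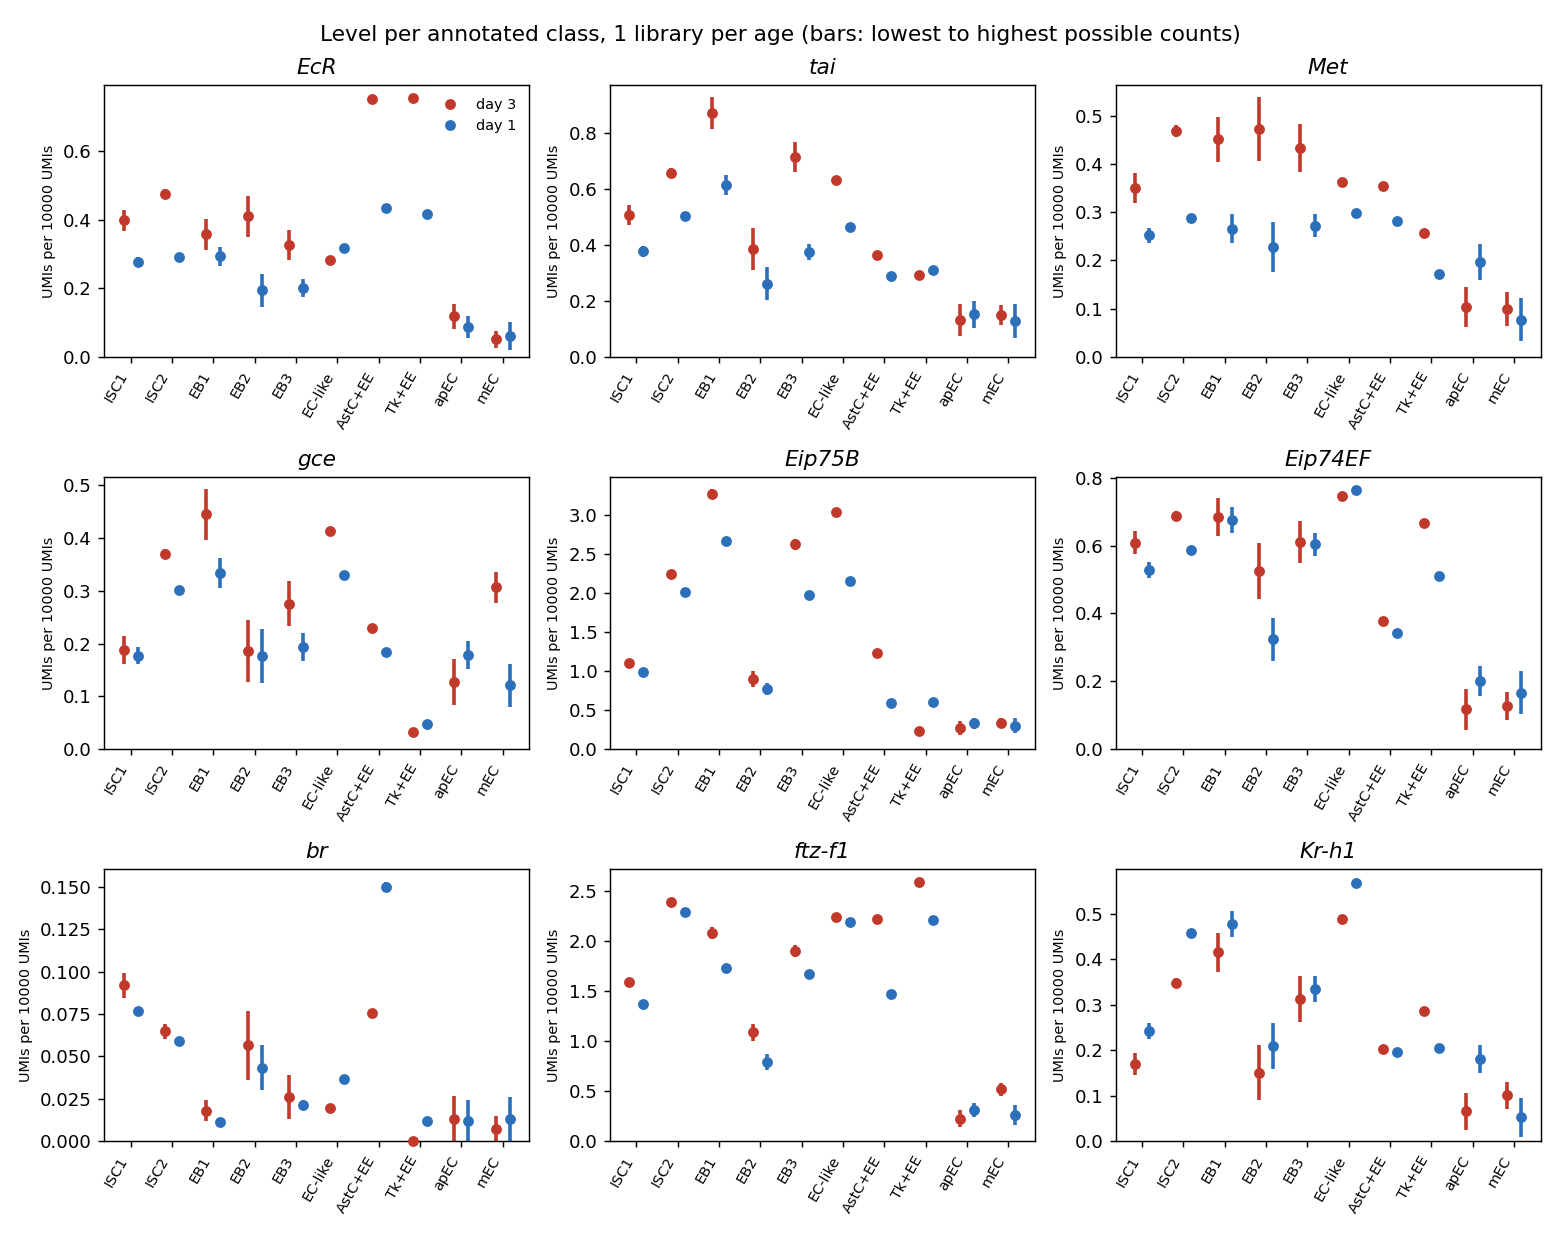
Mean level of each of the 9 genes (UMIs per 10000 UMIs, vertical axis from 0, a scale of its own for each gene) in the 10 annotated classes. Points are the midpoints of the rebuilt counts, day 3 left of day 1, and bars run from the lowest to the highest count that gives the deposited values; EcR stands highest in the enteroendocrine classes, at 0.756 and 0.751 at day 3, and Eip75B in EB1, at 3.26 at day 3.

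Among the ecdysone targets, Eip75B (3L, 17950953 to 18064696, minus strand), which encodes a nuclear receptor that binds heme, had its highest levels in EB1 and EC-like cells and its lowest outside the enteroendocrine cells in enterocytes. EB1 cells had 3.26 UMIs per 10000 at day 3 and 2.67 at day 1, and EC-like cells 3.03 and 2.15. EB3 had 2.62 and 1.98, and ISC2 2.24 and 2.01. These 4 classes formed the upper group at both ages. ISC1 (1.10 at day 3 and 0.984 at day 1) and EB2 (0.896 and 0.770) stood lower, and enterocytes lay between 0.275 and 0.333 at day 3 and between 0.302 and 0.330 at day 1. The gene was found in nearly every EB1 cell: depending on the counts of deep cells, 98.7 to 99.5% of them had a UMI at day 3 and 97.0 to 97.9% at day 1.

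In the 2 enteroendocrine classes Eip75B stood apart at day 3 and was at similar levels at day 1. AstC+EE cells had 1.23 UMIs per 10000 at day 3 and 0.596 at day 1, whereas Tk+EE cells had 0.230 at day 3 and 0.606 at day 1. After thinning to 4000 UMIs, a UMI was found in 13 of 26 AstC+EE cells at day 3 (exact 95% interval 29.9 to 70.1%) and in 6 of 30 at day 1 (7.71 to 38.6%). The shares in Tk+EE cells were 3.33% of 30 (0.0844 to 17.2) at day 3 and, at day 1, 9.09% of 22 (1.12 to 29.2). At day 3 the Tk+EE share was no higher than that of the enterocytes, 3.70% of 27 cells, and its interval did not reach that of AstC+EE cells. The intervals between ages overlapped within each class. Ribosomal genes took a median 30.9% of the UMIs of AstC+EE cells at day 3 and 47.9% at day 1, and 22.6% and 24.1% in Tk+EE cells; the part of this in the difference was not tested. Depth-corrected counts gave Tk+EE cells 0.712 at day 3 and 1.14 at day 1, and the correction assigned Eip75B a value above 0 in 73.9% of the 417 shallower cells that had no UMI of it.

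Eip74EF (3L, 17558672 to 17619325, minus strand), which encodes factors of the ETS family, was more even. It was highest in EC-like cells (0.746 UMIs per 10000 at day 3 and 0.762 at day 1), although by corrected counts Tk+EE cells, at 0.759, led at day 3, and ISC1, ISC2, EB1 and EB3 lay between 0.609 and 0.688 at day 3 and between 0.527 and 0.674 at day 1. EB2 had 0.525 at day 3 and 0.324 at day 1. At both ages Eip74EF was higher in Tk+EE cells (0.666 at day 3 and 0.511 at day 1) than in AstC+EE cells (0.379 and 0.343). These levels rested on only 18 and 9 UMIs at day 3 and 9 and 10 at day 1 in the shallower cells. Eip75B had the reverse order at day 3 only. Enterocytes had 0.118 and 0.128 at day 3 and 0.200 and 0.167 at day 1.

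The transcripts of br (X, 1575132 to 1664869, plus strand), whose proteins direct the formation of the pupa, were near the limit of detection. The highest levels with more than 10 UMIs behind them were in stem cells: 0.0919 per 10000 in ISC1 at day 3 and 0.0771 at day 1, and 0.0649 and 0.0588 in ISC2. EB1 had 0.0181 and 0.0112, so the stem cell classes exceeded it at both ages. AstC+EE cells had 0.0755 at day 3 and 0.15 at day 1, from 5 UMIs at day 3 and 8 or 9 at day 1. Tk+EE cells had 0 UMIs in 30 cells at day 3, which allows a sum of up to 3.69 UMIs (exact Poisson), and 1 UMI in 24 cells at day 1. The br level stayed below 0.1 corrected counts per 10000 in both libraries of every class that was compared between ages, so no difference was taken for it.

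The gene ftz-f1 (3L, 18750607 to 18801309, minus strand), which encodes a nuclear receptor that gives competence for later ecdysone pulses, was found in most cells outside the enterocytes. Tk+EE cells had 2.60 UMIs per 10000 at day 3 and 2.21 at day 1, ISC2 2.39 and 2.29, and EC-like cells 2.24 and 2.20. EB1 had 2.08 at day 3 and 1.73 at day 1, EB3 1.90 and 1.68, and ISC1 1.59 and 1.38. AstC+EE cells had 2.23 at day 3 and 1.47 at day 1. EB2 stood apart from the other progenitors at 1.09 and 0.792, and enterocytes were lower again, at 0.225 (apEC) and 0.518 (mEC) at day 3 and 0.313 and 0.261 at day 1. EB2 was also the lowest progenitor class for Eip75B, Eip74EF and tai at both ages; its cells were the deepest, with a median of 67954 UMIs at day 3 and 50587 at day 1, and its progenitor markers summed to 8.41 and 7.72 corrected counts per 10000, against at least 22.4 and 21.6 in the other 4 progenitor classes.

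The juvenile hormone receptor genes are paralogues, both on the X chromosome (Met at 11616124 to 11621280 and gce at 15297766 to 15319074, both on the plus strand), and their levels were distributed unequally. Outside the enterocytes Met ran from 0.256 (Tk+EE) to 0.472 (EB2) UMIs per 10000 at day 3. At day 1 it ran from 0.172 (Tk+EE) to 0.299 (EC-like) over the same classes. All 8 of these classes were higher at day 3. The gene gce varied more, from 0.445 in EB1 and 0.415 in EC-like cells at day 3, with 0.334 and 0.331 there at day 1, to 0.0325 in Tk+EE cells at day 3 and 0.0481 at day 1. AstC+EE cells had 0.231 and 0.184 of gce, and ISC1 0.187 and 0.177. In enterocytes gce was at 0.127 (apEC) and 0.307 (mEC) at day 3 and 0.178 and 0.121 at day 1, and Met at 0.104 and 0.10 at day 3 and 0.198 and 0.0775 at day 1. In Tk+EE cells gce rested on 1 UMI at each age in the shallower cells, where Met had 7 at day 3 and 4 at day 1.

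Kr-h1 (2L, 6082603 to 6096498, plus strand), a zinc finger gene that represses metamorphosis, was highest in EC-like cells, with 0.489 UMIs per 10000 at day 3 and 0.568 at day 1. In the shallower cells alone EB1 was above EC-like cells, with 0.607 against 0.511 at day 3 and 0.640 against 0.580 at day 1. By corrected counts both classes had 0.467 at day 1. Over all cells EB1 had 0.415 UMIs per 10000 at day 3 and 0.477 at day 1, and ISC2 0.348 and 0.458. EB3 had 0.313 and 0.334, ISC1 0.170 and 0.242, and EB2 0.151 and 0.210. The 6 classes named so far all had the lower value at day 3, the reverse of Met. The ranges of possible rebuilt levels of Kr-h1 overlapped between the ages in EB1, EB2 and EB3. AstC+EE cells had 0.202 at day 3 and 0.197 at day 1, Tk+EE cells 0.287 and 0.204, and enterocytes 0.0656 and 0.101 at day 3 and 0.181 and 0.0530 at day 1. ISC1 thus had less than EB1 or EC-like cells at both ages. Kr-h1 overlaps the gene CG45075 on the same strand, and Eip75B and ftz-f1 overlap 2 long noncoding RNA genes each on theirs; how the reads there were divided is not given in the sources used here.

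The 2 ages were then compared in 8 classes, for which the enteroendocrine and the enterocyte classes were each joined so that every class had 50 cells or more from either library. The measure was log2 of the day 3 over the day 1 mean of depth-corrected counts per 10000 after adding 0.1 to both, which understates the change of low genes. A difference of at least 1.5-fold was called, and a gene was taken where either library reached 0.1. Of 63 gene and class pairs, 5 were higher at day 3 and 0 lower, beside 3.87% higher and 3.32% lower among all genes and classes. By rebuilt UMIs the same 5 were called, beside 4.23% and 3.41%. The 5 were Met in EB1, EcR and Met in EB2, tai in EB3 and EcR in enteroendocrine cells. The background of calls differed between classes. Of all genes, 0.783% were called higher in ISC1, 1.41% in ISC2, 2.26% in EB1, 4.52% in EB2, 2.05% in EB3, 1.45% in EC-like cells, 9.8% in enteroendocrine cells and 7.48% in enterocytes. Called lower were 0.614%, 1.41%, 0.794%, 1.46%, 2.9%, 2.84%, 5.21% and 11.5% in the same classes, where 0 members were. In 7 of the 8 classes the members' median lay above that of all genes: it was 0.17 in ISC1, 0.21 in ISC2, 0.27 in EB1, 0.38 in EB2, 0.43 in EB3, 0.15 in EC-like and 0.13 in enteroendocrine cells, while the medians of all genes lay between -0.06 and 0.03. In enterocytes the members' median was -0.09 and that of all genes -0.05.

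**Figure D2:**
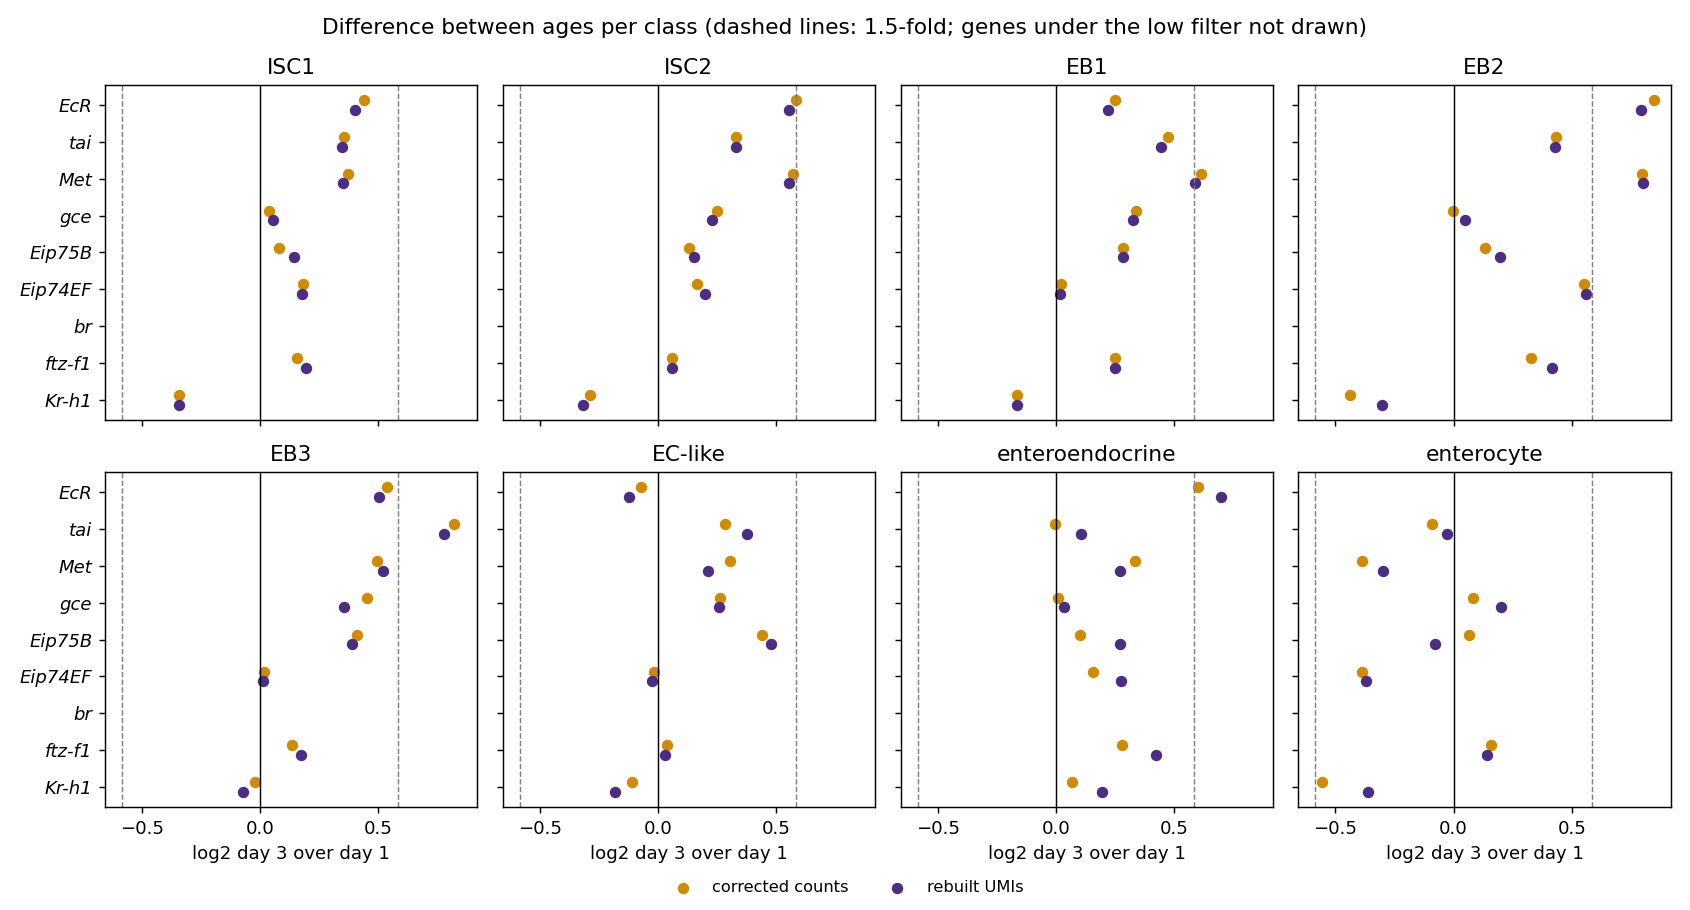
Difference between ages for each gene in 8 classes, as log2 of day 3 over day 1 (horizontal axis) by depth-corrected counts and by rebuilt UMIs; the dashed lines mark 1.5-fold and br, under the low filter, is not drawn. EcR, tai and Met lie right of 0 in all 5 progenitor classes, and Kr-h1 lies left of 0 in each of them.

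EcR was higher at day 3 in 6 of 7 classes, with a median log2 difference of 0.54. Its differences in 2 classes passed 1.5-fold by corrected counts. In EB2 cells EcR averaged 0.389 corrected counts per 10000 at day 3 and 0.172 at day 1. The log2 difference was 0.85, where 4.52% of all genes were called higher. EB2 held 6 shallower cells at day 3 and 24 at day 1, too few to compare EcR or Met in exactly rebuilt counts. Its median depth was 67954 UMIs at day 3 and 50587 at day 1, and the part of depth was not tested. In enteroendocrine cells EcR averaged 0.610 at day 3 and 0.368 at day 1, with a log2 difference of 0.60, where the background was 9.8% of genes. The rebuilt levels gave 0.79 and 0.70. Per non-ribosomal UMIs the enteroendocrine difference was 0.50, below 1.5-fold, and 0.36 when UMIs were summed over cells rather than averaged, so the call was lost with either scaling. In ISC2 EcR came to 0.461 at day 3 and 0.274 at day 1, with a log2 difference of 0.58 that stopped just short of 1.5-fold, and ISC1 had 0.44. The lowest possible rebuilt level at day 3 was above the highest possible at day 1 in ISC1, ISC2, EB2, EB3 and enteroendocrine cells. The reverse held in EC-like cells, where the log2 difference of corrected counts was -0.07. These ranges leave out counting error. The counting interval of the log2 ratio in the shallower cells lay above 0 in ISC1 (0.23 to 0.94) and ISC2 (0.15 to 0.81). It included 0 in EB1 (-0.21 to 0.68), EB3 (-0.98 to 1.88), EC-like (-0.69 to 0.28) and enteroendocrine cells (-0.20 to 1.37). In EB2 it ran from -3.58 to 1.79, with 2 UMIs at day 3 and 12 at day 1 in too few cells to compare.

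Met was higher at day 3 in 7 of 8 classes, all but the enterocytes, with a median log2 difference of 0.43. In EB1 it averaged 0.450 corrected counts per 10000 at day 3 and 0.260 at day 1, with a log2 difference of 0.61 beside 2.26% of all genes called. In EB2 the means were 0.433 at day 3 and 0.206 at day 1, with a log2 difference of 0.80. ISC2 reached 0.57, EB3 0.50, ISC1 0.37, enteroendocrine cells 0.34 and EC-like cells 0.30. In each of these 7 classes the lowest possible rebuilt level at day 3 exceeded the highest possible at day 1. These ranges leave out counting error. The counting interval of the log2 ratio in the shallower cells included 0 in ISC1 (-0.01 to 0.83) and enteroendocrine cells (-0.72 to 1.57). It lay above 0 in ISC2, EB1, EB3 and EC-like cells. In EB2 it ran from 0.14 to 3.78, with 6 UMIs at day 3 and 7 at day 1 in too few cells to compare. The call in EB1 was close to the limit: the difference was 0.59 by rebuilt UMIs, and the call was lost per non-ribosomal UMIs (0.54), with rebuilt UMIs summed over cells (0.58) and without the highest cell (0.58). In EB2 it was 0.55 when rebuilt UMIs were summed over cells, where the call was lost too.

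The paralogue gce passed 1.5-fold in 0 of 8 classes, with a median log2 difference of 0.17 and its highest value, 0.45, in EB3. The coactivator tai was higher at day 3 in 6 of 8 classes by corrected counts and passed 1.5-fold in 1, EB3, where it averaged 0.705 at day 3 and 0.356 at day 1, with a log2 difference of 0.82 beside 2.05% of genes called. In the shallower EB3 cells, 12 at day 3 and 37 at day 1, the log2 difference of tai was 0.05, so the call was lost there. EB3 cells had a median depth of 47108 UMIs at day 3 and 28406 at day 1, and their enteroendocrine markers summed to 0.292 at day 3 and 1.94 at day 1; the part of either in this difference was not tested. EB1 followed with a log2 difference of 0.48 for tai, and the other progenitor classes had 0.33 to 0.43.

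Among the targets, Eip75B and ftz-f1 were higher at day 3 in 8 of 8 classes by corrected counts, by small amounts: the highest log2 differences were 0.44 for Eip75B in EC-like cells and 0.33 for ftz-f1 in EB2. By rebuilt UMIs Eip75B was 0.08 lower in enterocytes. In the EC-like cells outside the cluster that only day 1 had, Eip75B came to 3.03 rebuilt UMIs per 10000 at day 3 and 2.32 at day 1, and the 81 day 1 cells of that cluster had 1.52. Eip74EF had 6 of 8 classes above 0, at most 0.55 in EB2. Kr-h1 went the other way, below 0 in 7 of 8 classes with a median of -0.22, and none of its values passed 1.5-fold. It differed by -0.34 in ISC1, -0.29 in ISC2 and -0.44 in EB2, and by 0.07 in enteroendocrine cells. In enterocytes it was -0.56, but 47.7% of the rebuilt day 1 level there came from 1 cell, and by rebuilt UMIs the difference was -0.36 with that cell and -0.04 with the highest cell left out of either library. In ISC1, ISC2 and EC-like cells its highest possible rebuilt level at day 3 was below the lowest possible at day 1. Its counting interval in the shallower cells lay below 0 in ISC1 (-1.27 to -0.17) and ISC2 (-0.66 to -0.04). In EC-like cells the interval included 0 (-0.52 to 0.20). Outside the cluster that only day 1 had, EC-like cells had 0.489 rebuilt UMIs of Kr-h1 per 10000 at day 3 and 0.625 at day 1. The 81 day 1 cells of that cluster had 0.357. In the stem cell classes Met and Kr-h1, the juvenile hormone receptor gene and its target, therefore differed in opposite directions between these 2 libraries, neither past 1.5-fold.

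Detection in single cells was compared at 1 depth, in the shallower cells, each thinned to 4000 UMIs. The thinning was 1 random draw and was not repeated. Of 63 gene and class pairs, 1 had intervals that did not overlap between the ages, which was so for 0.556% of all pairs of rebuilt genes and classes. Among pairs with a rebuilt level of at least 0.1 per 10000 in either library it was 1 of 55 for the members and 1.09% for all genes. The pair was ftz-f1 in ISC1, found in 53.5% of 129 cells at day 3 (44.5 to 62.3) against 38.4% of 294 at day 1 (32.8 to 44.3). Thinned to 2000 UMIs the ISC1 shares were 20.9% at day 3 and 23.1% at day 1, thinned to 8000 UMIs 69.0% and 65.6%, and without thinning 88.4% and 89.5%, with intervals that overlapped each time. EcR was found in 17.1% of ISC1 cells at day 3 (11 to 24.7) against 9.52% at day 1 (6.42 to 13.5), and Met in 15.5% (9.74 to 22.9) and 8.50% (5.58 to 12.3). For tai in EB1 the shares were 32.9% of 70 cells at day 3 (22.1 to 45.1) against 17.7% of 322 at day 1 (13.7 to 22.3), with intervals that barely met. As a measure of free RNA, the progenitor gene esg was found in 1 of 27 enterocytes at day 3 and 0 of 28 at day 1, against 94.3% of EB1 cells at day 3 and 87.0% at day 1. The enterocyte share of EcR was 7.41% (0.910 to 24.3) at day 3 and 0% at day 1.

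**Figure D3:**
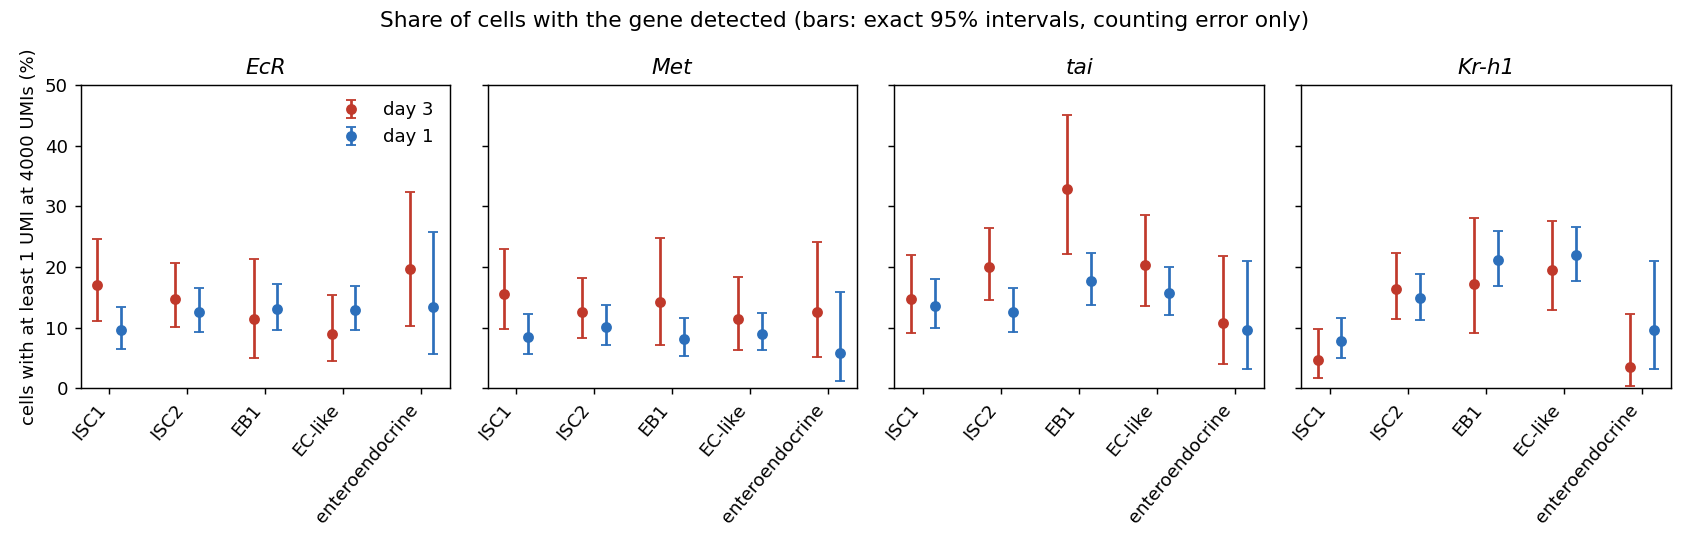
Share of cells with at least 1 UMI of EcR, Met, tai and Kr-h1 (percent, shallower cells thinned to 4000 UMIs) in 5 classes, day 3 left of day 1, with exact 95% intervals for counting error. The intervals of the ages overlap in every panel; tai in EB1, with 32.9% at day 3 and 17.7% at day 1, comes closest to parting.

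The genes' profiles over the 20 class and library levels were then set side by side, by Pearson's r on the log2 of corrected levels plus 0.1; these are descriptions over points that share libraries and differ in depth. Within the list the closest pair was Eip74EF and ftz-f1 (r = 0.95), followed by Eip74EF and tai (0.92) and ftz-f1 and tai (0.92). Kr-h1 was closest to Eip75B (0.89). The 2 juvenile hormone receptor genes had an r of 0.53 with each other, and gce had 0.13 with EcR. By rebuilt UMIs the order differed. Eip75B and tai came first (0.914), then Eip74EF and ftz-f1 (0.907), and ftz-f1 and tai had 0.817. Kr-h1 was then closest to Eip74EF (0.849), with 0.813 for Eip75B. Met and gce had 0.47, and gce and EcR -0.07. Most of these values share the low enterocyte levels. The search over 3527 genes used corrected levels. The profiles most like ftz-f1 were those of spen (0.98), a corepressor gene, and Rab35 (0.98). Most like EcR were those of Tlk (0.96), a kinase gene, and Spred (0.96). Eip74EF was most like esg (0.96), the transcription factor gene that marks midgut progenitors, and CG10803 (0.96). The nearest to tai was Blimp-1 (0.96), itself an ecdysone-induced repressor, and then REPTOR (0.95). Eip75B was nearest to wake (0.96) and RabX1 (0.95), Kr-h1 to ash2 (0.94) and drongo (0.93), Met to CG43759 (0.94) and cv-c (0.92), br to RpS15Ab (0.94) and sna (0.92), and gce to RpL35 (0.83) and RpL3 (0.82).

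Other genes of both hormone pathways were taken from 5 lists. They held 52 genes besides the members, and gave 274 gene and class pairs with 18 higher and 5 lower at day 3 by 1.5-fold, to be read against the 3.87% and 3.32% of all genes and classes. By rebuilt UMIs 17 of 251 pairs were higher and 4 lower. The calls below are by corrected counts. Of 80 pairs of receptor cofactors and transporters, 2 were higher and 0 lower, both in enteroendocrine cells: bon, which encodes a corepressor, and Oatp74D. The chaperone gene Hsp83, the actin-binding Chd64 and the nucleosome remodelling subunit gene Nurf-38 had the highest levels of that list and were called in 0 classes. Oatp74D encodes the importer that ecdysone needs to enter cells, and is singled out here after its values were seen. It was at 1.35 rebuilt UMIs per 10000 in AstC+EE cells at day 3 and 0.427 at day 1, and at 0.183 and 0.438 in Tk+EE cells. ISC2 had 0.184 and 0.204. The AstC+EE level came from 31 UMIs in the shallower cells at day 3 (21.1 to 44.0) and 9 at day 1 (4.12 to 17.1). Per 10000 of all UMIs the importer gene was thus highest in an enteroendocrine class, as was EcR, at both ages.

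Of 114 pairs of the ecdysone early and late response list, 12 were higher at day 3 and 3 lower. Among all genes and classes 3.87% were higher and 3.32% lower. Of those higher, 3 were in enteroendocrine cells and 3 in EB2, where 9.8% and 4.52% of all genes were called higher. Of those lower, 2 were in enterocytes, where 11.5% of all genes were called lower. The cell death gene hid was called in 5 classes, and by rebuilt UMIs in 4 of them, without EB3 (0.53). Its corrected levels were 0.872 at day 3 and 0.283 at day 1 in ISC2 (log2 1.34), 0.685 and 0.272 in EB1 (1.08), and 0.839 and 0.258 in EC-like cells (1.39). ISC1 and EB3 had 0.91 and 0.67. In ISC1, ISC2, EB1 and EC-like cells its difference was above those of the 8 members compared there, while in EB3 that of tai, 0.82, was larger. Eip93F, which encodes a factor that triggers the death of larval tissues, was highest in Tk+EE cells, with 6.89 rebuilt UMIs per 10000 at day 3 and 4.71 at day 1. Its level in AstC+EE cells was 4.29 at day 3 and 2.18 at day 1, when ISC2, with 2.43, was above them. Eip93F was called higher in enteroendocrine cells (log2 0.69) and in EB2 (0.59), the second at the limit and not called by rebuilt UMIs (0.58). The metabolic genes Ldh and Eip55E were called in EB3 in opposite directions, Ldh at 0.96 and Eip55E at -0.60. Eip55E was not called by rebuilt UMIs (-0.57), and the counts of Ldh could not be rebuilt. MsrA (listed as Eip71CD, a methionine sulfoxide reductase) was lower in enterocytes, with 0.337 corrected counts per 10000 at day 3 and 0.842 at day 1 (log2 -1.11), but 68.6% of its day 1 level came from 1 cell, and with the highest cell left out of either library the rebuilt difference of MsrA was -0.01.

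**Figure D4:**
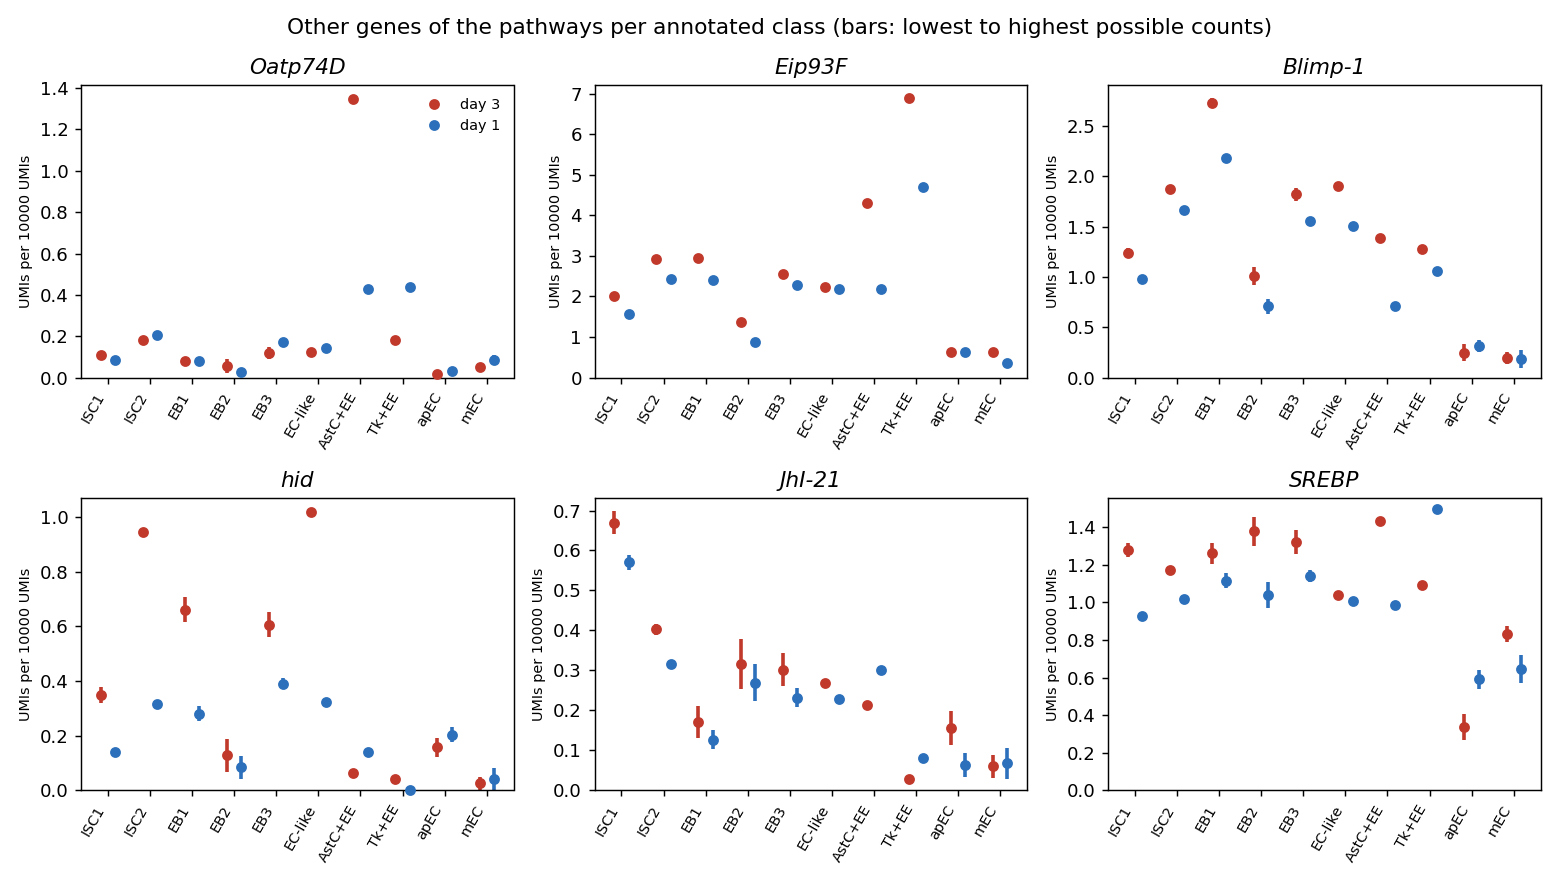
Mean level (rebuilt UMIs per 10000 UMIs, a scale of its own for each gene) of 6 other genes of the hormone lists in the 10 classes, day 3 left of day 1, with bars from the lowest to the highest possible count. Eip93F stands highest in Tk+EE cells at both ages and Oatp74D in AstC+EE cells at day 3, and hid is higher at day 3 in ISC1, ISC2, EB1, EB3 and EC-like cells; Oatp74D and Blimp-1 were added after their values were seen.

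The hormone-producing enzymes were scarce. Of 12 genes for ecdysone synthesis and inactivation 7 had a row, and 3 of their gene and class pairs reached the low filter, 0 of them called. Their leading members dare, shd and sro averaged 0.0806, 0.0154 and 0.00873 corrected counts per 10000 over classes and libraries. Of 44 pairs of juvenile hormone synthesis and breakdown, 1 was higher and 2 lower, beside 3.87% and 3.32% of all genes and classes. The epoxide hydrolase genes that break juvenile hormone down differed by class. Jheh1 was highest in EB1, with 1.32 rebuilt UMIs per 10000 at day 3 and 1.42 at day 1. The counts of Jheh2 could not be rebuilt, and its corrected level in EB1 was 1.67 at day 3 and 2.15 at day 1. Jheh3 was highest in apEC cells, with 2.67 at both ages. By corrected counts alone, Jheh2 was called lower in EB3 (log2 -0.91) and in enteroendocrine cells (-0.61). By both measures Jheh3 was called higher in enteroendocrine cells (0.72 by corrected counts).

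Of 33 pairs of the juvenile hormone response list other than Kr-h1, 3 were higher and 0 lower. The shares of all genes and classes were 3.87% and 3.32%. All 3 higher pairs were JhI-26, in EB1 (log2 0.82), EB2 (0.81) and enteroendocrine cells (0.94). In EB2 32.4% of its rebuilt day 3 level came from 1 cell, and the rebuilt difference of JhI-26 was 0.57 with the highest cell left out of either library, below 1.5-fold. The leading genes pst, SREBP and JhI-21 were called in 0 classes. JhI-21, which encodes an amino acid transporter, was highest in ISC1, with 0.670 rebuilt UMIs per 10000 at day 3 and 0.570 at day 1. JhI-26 and Kr-h1 are both named as juvenile hormone-induced genes. Their measured differences had opposite signs in EB1 and EB2, where Kr-h1 had -0.16 and -0.44. The ranges of possible rebuilt levels of Kr-h1 overlapped between the ages in both classes, so its direction there was not settled.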

How the data were processed

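For each gene and cell the deposited matrix gave ln(1 + x), the natural log, with x a whole number. In every cell x added up to the deposited score for its corrected total, which identifies x as a depth-corrected count. Depth per cell was the deposited count of UMIs. The deposited percent of ribosomal genes and the authors' class and singlet annotation were used; all cells were singlets in the deposited table. Doublet neighbour shares and label transfer scores, deposited as fractions by the authors, were not used further. Cell Ranger 6.0.1 and the build BDGP6 are named in the submitters' processing notes. Raw UMI counts were rebuilt by inverting the depth correction, with 3 unknowns fitted per gene on 1416 cells; the 9 members followed the fitted rule in every one of these cells. Counts were exact in the 2092 cells with no more than the median number of UMIs; in deeper cells a lowest and a highest possible count were kept. Of 9607 genes, 8497 were used in rebuilt form. The method was tested on simulated data. Rebuilding in deep cells was added on seeing the data.

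Levels, differences, thinned shares and lists were computed in Python 3.11.15 with numpy 2.4.6, as described beside the results, with no test because each age had 1 library. The members and the gene lists were chosen with earlier results of these data known. Named list genes were the 3 with the highest mean level per list and those with a log2 difference of at least 1 in a class where the mean of 1 library or both was at least 0.5 corrected counts per 10000. Genes most alike a member were the 2 with the highest r among genes that reached 0.5 in 1 of the 20 levels. Listed symbols without a row were looked up through RefSeq synonyms (Ldh, MsrA, Oatp74D and RNaseZ). Gene positions come from the BDGP6 annotation. No sequence is shown.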

Additional observations from a re-analysis of the deposited data

How the results depend on the processing

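No paired analysis was possible because each age had 1 library. No direction of a called difference of the 9 members turned under the settings tried. EB2 had too few shallower cells to try its calls of EcR and Met in them. The count of member pairs higher at day 3, 5, became 0 with a pseudocount of 1 per 10000, 11 with 0.01, 1 with means of the deposited log values and 3 per non-ribosomal rebuilt UMIs. The count lower at day 3, 0, became 4 with a pseudocount of 0.01 and 1 with rebuilt UMIs in the shallower cells. For the lists, 18 higher became 1 and 30 with those pseudocounts, 28 in the shallower cells and 5 with log values; 5 lower became 1, 13, 14 and 1 under the same settings. That count was 3 with the highest cell left out of either library, and with rebuilt UMIs of all cells it was 3 by the highest counts, 1 without the highest cell and 2 by sums over cells. The count of member and class pairs with shares parted between ages, 1, became 2 at own depth, 3 with all cells at their lowest counts and 2 at their highest, beside 1.74%, 1.27% and 1.27% of all pairs of rebuilt genes and classes; ftz-f1 in ISC1 was not among them. The cause of these changes was not tested. The same highest class in both libraries was found for 6 members by corrected counts, 5 by rebuilt UMIs of all cells and 4 by those of the shallower cells. The settings with rebuilt UMIs of all cells were chosen after seeing the data. Few cells per enteroendocrine and enterocyte class, and few UMIs per cell for br, EcR, gce, Met and Kr-h1, limit all of the above; intervals cover counting error only.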
